A study of Mus musculus with 66 samples.

Results

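The nuclear-encoded genes of the respiratory chain and the ATP synthase were followed across 3 culture conditions of mouse small intestinal organoids. Members were the entries of the deposited RNA table whose gene symbol starts with Nduf, Uqcr or Atp5, or with Cox followed by a digit. This rule gave 84 transcripts of 82 gene symbols among 9481 transcripts of 8978 symbols, and all 84 had enough reads to be tested. By role, 7 were core subunits of complex I, 30 were accessory subunits of complex I (28 symbols, because Ndufa13 and Ndufv3 each had 2 transcripts), 8 belonged to complex III, 11 to complex IV and 13 to the ATP synthase. The remaining 15 coded for assembly factors, which help to build the complexes without being part of the finished enzyme. The table listed only transcripts whose protein had been quantified in the study, so absence of a family member from the list says nothing about its expression. None of the 13 subunits encoded by the mitochondrial genome was listed.

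All organoids carried the Lgr5 GFPDTR/+ reporter allele and were derived from the small intestine. ENR was the regular medium with EGF, Noggin and R-Spondin. CV was ENR with the GSK3 inhibitor CHIR99021 (3 µM) and the histone deacetylase inhibitor valproic acid (1 mM) for 5 days, and is labelled as enriched in stem cells. EN was ENR without R-Spondin for 2.5 days, and is labelled as depleted of stem cells. RNA-seq and ATAC-seq, which measures chromatin accessibility, each had 4 libraries per culture. H3K27ac, H3K4me3 and H3K27me3 had 3 usable libraries per culture, and binding of the transcription factor Hnf4g was measured once per culture. The 3 media differ in duration as well as in additives, and valproic acid itself acts on histone acetylation, so these cannot be told apart in any comparison with CV. The labels do not say that replicates came from separate mice, so the p-values measure the spread between libraries, which may be technical.

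Marker genes followed the labels in most lists. All 5 stem cell markers and all 5 transcripts of proliferation genes fell from CV to EN, the latter from a summed 961 to 1006 CPM (counts relative to library size, TMM-scaled) to 156 to 164 (1306 to 1356 in ENR). All 7 enterocyte markers rose, with a summed level of 5848 to 6117 CPM in CV, 7191 to 7978 in ENR and 42986 to 44955 in EN. Goblet, enteroendocrine and tuft cell markers rose as well (3 of 3, 3 of 3 and 2 of 2), and their summed levels moved from 247 to 272, 24.1 to 35.9 and 0.539 to 2.41 CPM in CV to 2254 to 2569, 1283 to 1763 and 55.9 to 74.4 CPM in EN, with 520.4 to 583, 491 to 510.3 and 24.3 to 27 CPM in ENR. Paneth markers were split (2 up and 2 down), at 2502 to 2832 CPM in CV, 3965 to 4217 in ENR and 1500 to 1713 in EN. Stem cell markers summed to 457 to 518 CPM in CV, 1708 to 1851 in ENR and 36.0 to 40.1 in EN, so ENR and not CV held the highest level of this list. RNA came from whole organoids, in which fewer cells of a type and less RNA per cell cannot be told apart, and the part of changed cell composition in the results on respiratory genes was not tested.

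The respiratory chain passes electrons from NADH (complex I) and succinate (complex II) through ubiquinone, complex III and cytochrome c to oxygen at complex IV. Complexes I, III and IV pump protons across the inner mitochondrial membrane, and the ATP synthase lets them return to make ATP. Most subunits are encoded in the nucleus, are needed in fixed proportions and are imported, and complex I in particular depends on a series of dedicated assembly factors. In the intestine, stem cells and absorptive enterocytes differ in their mitochondrial metabolism.

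Some sequence motifs occurred in a larger share of these promoters than of all protein-coding promoters, though each in a minority of them. In the window from 250 bases before to 49 bases after the annotated start site (GENCODE, mm9), the NRF1 motif (GCGCA, any base, GCGC) was found on either strand in 14 of 82 promoters, or 17.1%, against 6.05% of 22375 protein-coding promoters. The ETS motif CCGGAAG, read by GABP, was found in 18 promoters (22% against 10.9%), and the YY1 motif AAGATGGC in 9 (11% against 3.33%). The SP motif GGGCGG occurred in 38, at 46.3% close to the 44.7% of all promoters. No member window held the HNF4 motif CAAAGTCCA or the ERR motif TCAAGGTCA, which occurred in 0.478% and 0.331% of all windows. These are exact letter matches in short windows, and describe the sequences only.

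Sequences of 5 promoters are shown because the results turn on these genes: the largest rise (Cox7a1), the largest rise in the ATP synthase (Atp5o), the largest rise among complex I core subunits (Ndufs7), and the 2 largest falls among assembly factors (Ndufaf5 and Ndufaf2). Each has 150 bases of mm9, 5′ to 3′ on the strand of the gene, ending just before its start site. Capitals mark NRF1, ETS and YY1 matches only, here an NRF1 match in Ndufs7. SP matches are left in lower case, at bases -54 to -49 from the start in Ndufs7 and -48 to -43 in Ndufaf2. Ndufaf5 has an NRF1 match from base 13 to base 22 after the start, outside the stretch shown, Ndufaf2 has an SP match only, and Cox7a1 and Atp5o have none of the 6 motifs in their windows. The regions are chr7:30969040-30969189 for Cox7a1 (plus strand), chr16:91931933-91932082 for Atp5o (minus), chr10:79711716-79711865 for Ndufs7 (plus), chr2:139996235-139996384 for Ndufaf5 (plus) and chr13:108948786-108948935 for Ndufaf2 (minus).
Cox7a1: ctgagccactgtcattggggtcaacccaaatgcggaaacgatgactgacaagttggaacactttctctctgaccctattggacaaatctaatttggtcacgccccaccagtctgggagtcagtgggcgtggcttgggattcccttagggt
Atp5o: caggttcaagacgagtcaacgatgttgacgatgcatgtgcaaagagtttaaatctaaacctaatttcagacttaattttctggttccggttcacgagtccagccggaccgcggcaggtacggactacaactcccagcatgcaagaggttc
Ndufs7: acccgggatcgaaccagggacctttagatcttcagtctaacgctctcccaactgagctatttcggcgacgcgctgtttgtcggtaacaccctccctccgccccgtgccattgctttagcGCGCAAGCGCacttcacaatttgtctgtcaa
Ndufaf5: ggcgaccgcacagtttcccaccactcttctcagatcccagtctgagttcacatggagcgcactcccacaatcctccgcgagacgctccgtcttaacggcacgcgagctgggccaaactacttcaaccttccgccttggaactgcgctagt
Ndufaf2: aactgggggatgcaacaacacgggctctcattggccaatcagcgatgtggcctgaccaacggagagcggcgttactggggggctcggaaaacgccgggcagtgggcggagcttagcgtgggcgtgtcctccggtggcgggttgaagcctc

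From CV to EN more subunit transcripts were called higher than lower, and more assembly factors lower than higher. Of the 84 member transcripts, 39 were higher in EN (46.4%, against 35.2% of all 9288 transcripts tested) and 18 were lower (21.4% against 41.2%), by edgeR's quasi-likelihood test at an adjusted p under 0.01. Their median log2 fold change was 0.18, against -0.076 for all transcripts. Subunits accounted for 37 of the rises and 9 of the falls among 69 transcripts, and assembly factors for 2 and 9 among 15 (4 and 2 on the copy scale described next). Of those 9 falls, 6 were of the 7 Ndufaf transcripts and 3 of the 7 complex IV factors, the latter close to the 41.2% of all transcripts. Since 76.4% of all transcripts were called in 1 direction or the other, a call by itself sets no member apart.

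The direction of these small shifts depended on the scaling of the libraries. CPM after TMM scaling, the scale used throughout unless stated, assumes that most transcripts do not change. The TMM factors were 0.83 to 0.84 in EN against 1.11 to 1.13 in CV and 1.07 to 1.08 in ENR. With DESeq2's size factors 45 members were higher and 14 lower in EN than in CV, whereas with plain library totals the split turned to 8 and 46, with spike-in scaling to 3 and 23, and with TPM (pseudocount 1) to 10 and 34. On the mRNA copy numbers that the authors derived from spike-ins, 59 were higher and 2 lower. What did not turn was the position of the family against the other transcripts: the median of the members lay 0.26 above the median of all transcripts with TMM, DESeq2 factors, library totals or spike-ins, 0.18 above on TPM (0.11 with a pseudocount of 5) and 0.42 above on copies.

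**Figure D1:**
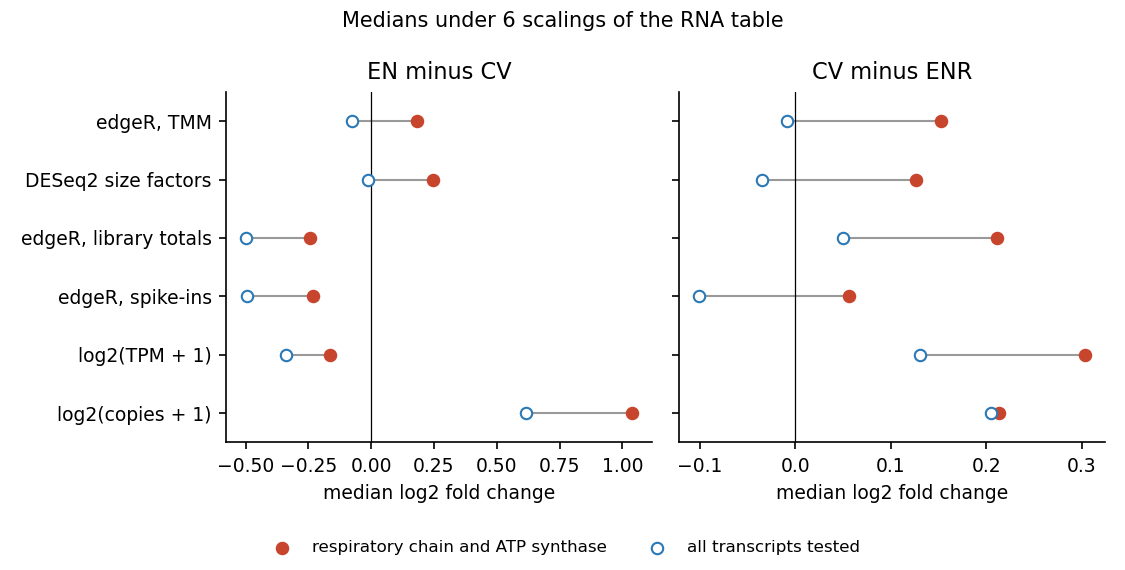
Median log2 fold change of the 84 member transcripts (filled circles) and of all transcripts tested (open circles) under 6 scalings, for EN minus CV at left and CV minus ENR at right. In EN minus CV the members sit right of all transcripts under each scaling, by 0.18 to 0.42, while their sign changes from -0.24 with library totals to 1.04 on copies.

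As a share of all counts, the 84 transcripts together made up 1.86% ± 0.023 in CV (SD, n = 4), 1.71% ± 0.014 in ENR and 1.64% ± 0.054 in EN. Relative to transcript length, their summed TPM (a count per length, scaled to the same total in each library) was 38364 ± 389 in CV, 31906 ± 164 in ENR and 37039 ± 820 in EN, so that ENR was lowest. Assembly factors were a small part of this, at 682 ± 20.5, 491 ± 8.50 and 420 ± 18 summed TPM in CV, ENR and EN. The core subunits of complex I summed to 1759 ± 28.4, 1570 ± 16.6 and 1518 ± 36.8, far less than complex IV at 11107 ± 79.8, 9443 ± 58.5 and 11615 ± 161.

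**Figure D2:**
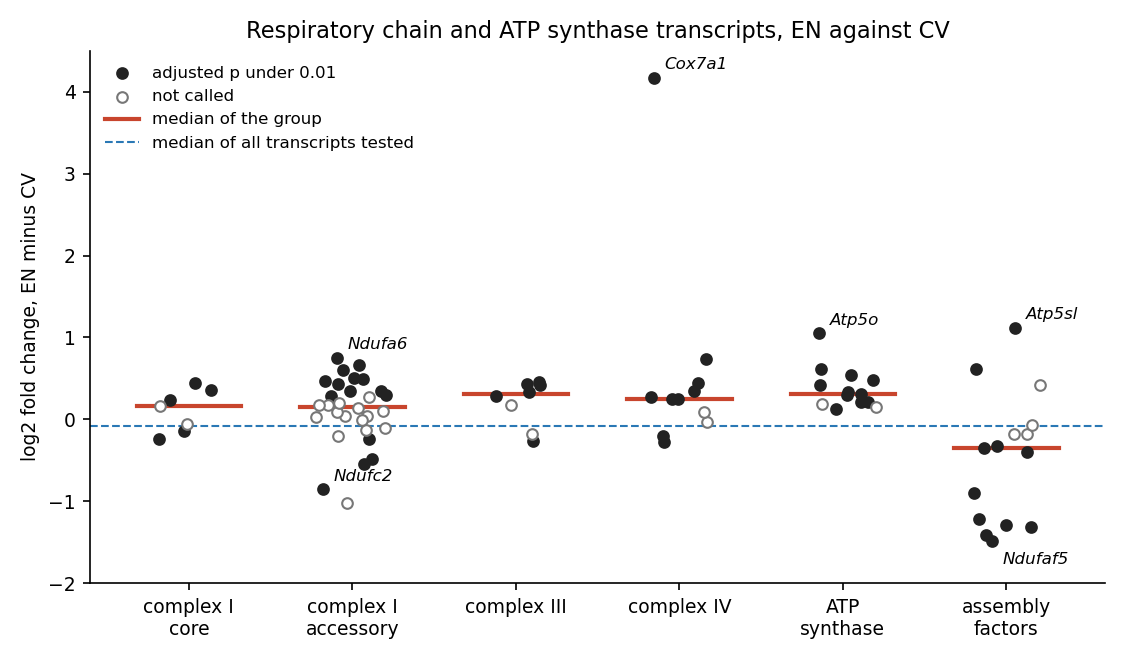
Log2 fold change from CV to EN (edgeR, TMM) of each of the 84 transcripts by role; filled points passed an adjusted p under 0.01, open points did not, red bars are group medians and the dashed line is the median of all transcripts. Cox7a1 stands at 4.17, and the group medians are 0.15 to 0.31 for subunits and -0.35 for assembly factors; with library totals or TPM most small rises turn to falls.

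Complex I takes electrons from NADH, and its core subunits carry the flavin and the iron-sulfur clusters. Of the 7 core transcripts 3 rose and 2 fell from CV to EN, a split that became 0 and 5 with library totals. As shares, 42.9% rose and 28.6% fell with TMM, against 35.2% and 41.2% of all transcripts. Ndufs7, an iron-sulfur subunit next to the quinone site, was at 69.3, 62.3, 67.1 and 68.1 CPM in CV, 78.1, 85.6, 75.2 and 76.0 in ENR and 92.1, 91.2, 88.3 and 90.3 in EN. The 3 cultures did not overlap, with EN highest (log2 fold change over CV 0.44 ± 0.05 SE, adjusted p = 8.19e-07). On the 6 other scalings this rise was as low as 0.015 and was called in 2. With library totals EN fell below ENR (-0.16). Ndufs3, of the module that connects to the quinone site, had 87.6, 93.3, 93.4 and 87.0 CPM in CV and 117, 118, 118 and 109 in EN (0.35 ± 0.04, adjusted p = 1.94e-06; -0.072 with library totals). Its ENR values of 108, 113, 115 and 115 lay within the range of EN apart from the lowest. In contrast, Ndufs1, the largest iron-sulfur subunit, had 351, 330, 355 and 318 CPM in CV against 284, 292, 285 and 289 in EN (-0.24 ± 0.04, adjusted p = 2.85e-05; 0.61 on copies). Ndufv1, which binds the flavin that accepts electrons from NADH, had 303, 291, 301 and 303 CPM in CV, 244, 233, 233 and 240 in ENR and 285, 287, 256 and 261 in EN. CV was highest for both, and the Ndufv1 difference from EN was small (-0.14 ± 0.04, adjusted p = 0.00575; 0.72 on copies).

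Accessory subunits surround this core and stabilise it. In EN 11 of 30 accessory transcripts were higher than in CV and 4 were lower, with a median of 0.15 (2 and 16 with library totals, 22 and 0 on copies). The share called higher, 36.7%, was close to the 35.2% of all transcripts, while 13.3% were lower against 41.2%. Ndufa6 was at 265, 250, 237 and 231 CPM in CV, 228, 209, 212 and 214 in ENR and 441, 430, 399 and 386 in EN. EN lay above both other cultures in each library (0.75 ± 0.05 over CV, adjusted p = 1.76e-09), and kept this direction under the 6 other scalings. Ndufa2 had 64.0, 69.8, 65.3 and 55.2 CPM in CV, 79.2, 76.7, 77.3 and 74.2 in ENR and 99.4, 124, 91.9 and 89.7 in EN (0.67 ± 0.09 over CV, adjusted p = 6.5e-06). Ndufc2 went the opposite way, with 136, 127, 127 and 124 CPM in CV, 96.5, 94.9, 91.3 and 93.5 in ENR and 76.1, 76.4, 68.9 and 63.3 in EN. Its 3 cultures did not overlap, and it was lower in EN than in CV by each scaling, although narrowly on copies (-0.069; -0.85 ± 0.06 with TMM, adjusted p = 1.16e-09). Ndufs4, which sits in the electron input arm, had 113, 113, 112 and 103 CPM in CV, 74.8, 75.9, 74.3 and 74.0 in ENR and 75.4, 80.3, 71.2 and 76.0 in EN, so that CV stood apart from both other cultures (-0.54 ± 0.05 for EN over CV, adjusted p = 2.31e-08; 0.25 on copies).

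Complex III hands electrons from ubiquinol to cytochrome c. From CV to EN 5 of its 8 transcripts rose and 1 fell, with a median of 0.31 (0 and 2 with library totals). With TMM this was 62.5% and 12.5%, against 35.2% and 41.2% of all transcripts. Uqcrh, the hinge protein near cytochrome c1, was at 408, 403, 435 and 385 CPM in CV, 352, 343, 358 and 338 in ENR and 558, 614, 542 and 522 in EN (0.45 ± 0.05, adjusted p = 4.33e-07). Its rise over CV was as low as 0.031 on the 6 other scalings and was called in 2. The core proteins Uqcrc2 and Uqcrc1 behaved alike in direction, Uqcrc2 from 434, 447, 447 and 425 to 557, 590, 622 and 592 CPM (0.43 ± 0.04, adjusted p = 2.4e-08). The Uqcrc2 rise was as low as 0.0040 on the 6 other scalings and was called in 2. Uqcrc1 went from 375, 409, 411 and 426 to 571, 534, 518 and 544 CPM (0.42 ± 0.04, adjusted p = 1.78e-07), and its difference vanished with library totals (-0.0044). Uqcrfs1, the Rieske iron-sulfur protein, had 307, 320, 322 and 314 CPM in CV, 240, 248, 254 and 253 in ENR and 392, 403, 441 and 365 in EN (0.34 ± 0.05 over CV, adjusted p = 8.73e-06; -0.086 with library totals). ENR was the lowest culture for this gene and for Uqcrh, without overlap. The small subunit Uqcr10 was the 1 that fell, with 176, 168, 171 and 160 CPM in CV and 138, 145, 152 and 128 in EN (-0.27 ± 0.05, adjusted p = 0.000325; 0.58 on copies).

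Complex IV reduces oxygen to water. From CV to EN 7 of its 11 transcripts rose and 2 fell, with a median of 0.25 (2 and 7 with library totals). With TMM this was 63.6% and 18.2%, against 35.2% and 41.2% of all transcripts. Cox4i1, the nuclear subunit through which ATP regulates the enzyme, had 651, 627, 633 and 628 CPM in CV, 608, 606, 600 and 591 in ENR and 863, 893, 858 and 829 in EN. The EN libraries stood above both other cultures (0.44 ± 0.03 over CV, adjusted p = 2.28e-09), but by only 0.015 with library totals. Cox7c rose further, from 315, 315, 302 and 299 in CV and 378, 370, 351 and 395 in ENR to 513, 527, 520 and 487 CPM in EN (0.73 ± 0.04 over CV, adjusted p = 1.28e-10). Cox5a showed another pattern, at 129, 132, 129 and 129 CPM in CV and 134, 127, 136 and 112 in EN (-0.031 ± 0.05, adjusted p = 0.6), both above the 90.8, 99.5, 94.9 and 97.7 in ENR.

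Cox7a1 had by far the largest change in the family. Cox7a1 codes for the isoform of subunit VIIa known from heart and skeletal muscle, and Cox7a2 for the isoform of most other tissues. Cox7a1 was at 9.84, 7.61, 9.15 and 8.92 CPM in CV, 30.5, 23.6, 24.6 and 25.4 in ENR and 181, 171, 163 and 127 in EN. All 3 cultures were apart, and EN was 18-fold above CV (log2 fold change 4.17 ± 0.13, adjusted p = 8.39e-14). EN exceeded ENR by 2.62 (adjusted p = 4.56e-12), and CV lay below ENR by -1.56 (adjusted p = 2.17e-07). The rise from CV to EN was between 3.71 and 5.34 on the 6 other scalings and was called in each. Cox7a2 was nearly level by comparison, at 208, 220, 229 and 208 CPM in CV, 211, 198, 201 and 202 in ENR and 249, 289, 317 and 247 in EN (0.35 ± 0.07 for EN over CV, adjusted p = 0.00024; -0.0793 with library totals). The related Cox7a2l, which takes part in joining complexes III and IV into supercomplexes, had 647, 634, 647 and 606 CPM in CV, 482, 476, 483 and 454 in ENR and 522, 547, 535 and 496 in EN (-0.27 ± 0.04 for EN over CV, adjusted p = 7.53e-06; 0.60 on copies).

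Per length, Cox7a1 exceeded Cox7a2 in each EN library and in no CV or ENR library. Cox7a1 ranged from 57.5 to 71.8 TPM in CV, 163 to 199.7 in ENR and 805 to 1065 in EN, and Cox7a2 from 569 to 629, 494.5 to 518 and 554 to 695. As a share of their summed TPM, which no library scaling can alter, Cox7a1 made up 11.2, 8.65, 9.94 and 10.7% in CV, 27.8, 24.8, 25.5 and 25.8% in ENR and 65.8, 60.1, 58.4 and 59.2% in EN. No 2 cultures overlapped, and the means were 10.1% ± 1.11, 26% ± 1.29 and 60.9% ± 3.35 (SD, n = 4). Each of the 3 pairwise differences had a two-sided exact permutation p of 0.0286 (adjusted p = 0.0286), the smallest that 4 against 4 libraries can give. Because Cox7a1 is known from muscle, markers of fibroblasts, muscle and blood were set beside it. This list of 6 markers summed to 5.42 to 8.49 CPM in CV, 8.31 to 9.98 in ENR and 23.7 to 29.5 in EN, where Vim and Ptprc were the 2 that rose (Vim from 2.96 ± 0.309 to 23.3 ± 3.11 CPM). Of the muscle markers in this list, Des was at 1.69 to 3.84 CPM in CV and 0 to 0.178 in EN, and Acta2 did not exceed 0.144 CPM in EN. Whether other cell types contribute to the Cox7a1 values was not tested.

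**Figure D3:**
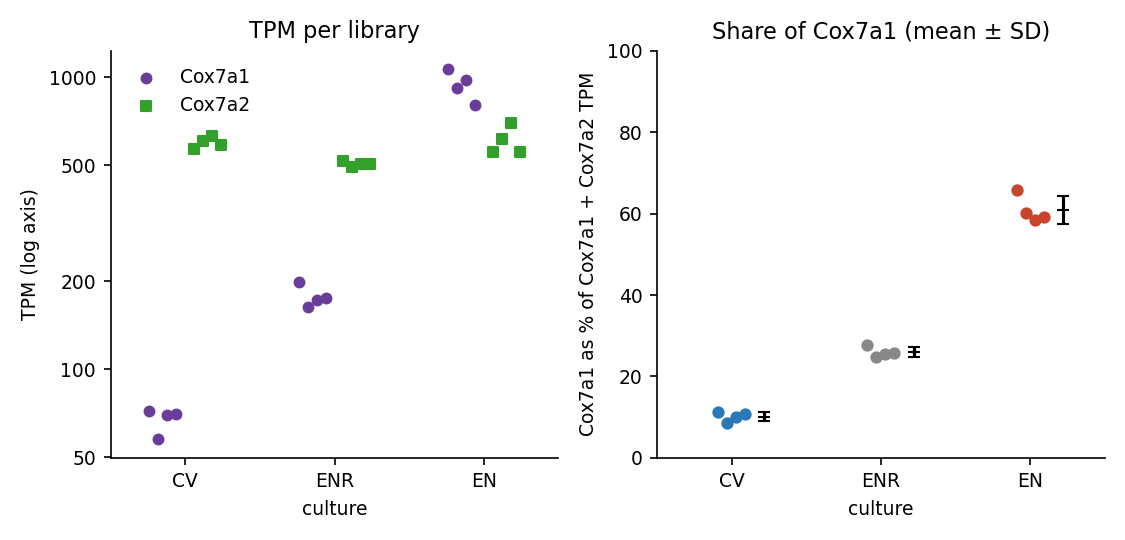
Left, TPM (log axis) of Cox7a1 and Cox7a2 in each of the 4 libraries per culture; right, Cox7a1 as a percentage of the summed TPM of both, with points for libraries and bars for the mean ± SD. The share is 10.1% in CV, 26% in ENR and 60.9% in EN, and no library of a culture reaches the range of another.

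The ATP synthase turns the proton gradient into ATP. From CV to EN 11 of its 13 transcripts rose and 0 fell by edgeR's quasi-likelihood test (DESeq2 also gave 11 and 0), with a median of 0.30 and a lowest fitted change of 0.13. Library totals gave 3 higher and 4 lower instead. With TMM 84.6% were higher, against 35.2% of all transcripts. Atp5o, the subunit that ties the catalytic head to the peripheral stalk, had 199, 209.7, 199 and 200.1 CPM in CV, 236, 245, 243 and 242 in ENR and 432, 437, 404 and 402 in EN. EN was 2.07-fold above CV without overlap (1.05 ± 0.04, adjusted p = 4.71e-13) and was called higher under the 6 other scalings. Atp5d, of the central stalk, had 91.2, 102, 99.3 and 102 CPM in CV, 86.0, 94.4, 93.8 and 94.9 in ENR and 164, 139, 157 and 144 in EN (0.62 ± 0.06 over CV, adjusted p = 6.16e-08). The catalytic head had smaller fold changes. Atp5a1 went from 1972, 1920.2, 1978 and 1953 to 2469, 2467, 2347 and 2357 CPM (0.30 ± 0.03, adjusted p = 1.03e-07; -0.12 with library totals). Atp5b, which holds the catalytic site, was at 2321, 2344, 2400.4 and 2347 CPM in CV and 2596, 2642, 2505 and 2548 in EN (0.13 ± 0.03, adjusted p = 0.000482; -0.30 with library totals). Both were above their CV libraries in each EN library, and they were the most abundant of the named members by CPM.

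Most Ndufaf transcripts, which code for assembly factors of complex I, fell. Of the 7, 6 were lower in EN than in CV and 0 higher, with fitted log2 fold changes of -1.48 to -0.072 and a median of -1.29. The count of lower transcripts was 5 with DESeq2, 7 with library totals, 6 with spike-ins and 7 on TPM, but 2 on copies, where the whole table shifted up by 0.62. Ndufaf5, which modifies Ndufs7, had 20.6, 22, 20.4 and 21.8 CPM in CV, 16.6, 19.0, 19.4 and 17.2 in ENR and 7.37, 8.35, 6.06 and 8.49 in EN. Each EN library was below each CV and ENR library, 2.80-fold lower than CV (-1.48 ± 0.11, adjusted p = 3.43e-09). Ndufaf2, which binds a late intermediate, had 22, 21, 19.9 and 18.6 CPM in CV, 10.9, 11.5, 12.1 and 14.1 in ENR and 7.64, 7.92, 7.14 and 7.92 in EN. All 3 cultures were apart, in the order CV, ENR and EN (EN over CV -1.41 ± 0.11, adjusted p = 6.38e-09; CV over ENR 0.74). Both genes were lower in EN than in CV in all 6 other scalings, and called in each.

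The other 5 complex I assembly factors were chosen for description after their values were seen. Ndufaf7, a methyltransferase, had 40.7, 39.9, 39.1 and 41.7 CPM in CV and 16.8, 15.2, 15.3 and 17.4 in EN (-1.31 ± 0.09, adjusted p = 1.44e-09). Ndufaf6 had 24.8, 25.9, 24.3 and 25.8 against 9.65, 10.9, 9.63 and 10.9 CPM (-1.29 ± 0.09, adjusted p = 1.08e-09). Ndufaf4 and Ndufaf3 are known as partners that act early in building the arm that reduces ubiquinone. Ndufaf4 went from 56.7, 59.5, 61.6 and 52.8 to 25.2, 27.4, 24.8 and 22.3 CPM (-1.22 ± 0.07, adjusted p = 2.63e-10), whereas Ndufaf3 was at 12.8, 13.9, 16.3 and 15.2 against 12.3, 13.5, 15.9 and 13.8 CPM and overlapped between the cultures (-0.072 ± 0.11, adjusted p = 0.544). Ndufaf1 fell less, from 26.1, 31.9, 24.9 and 27.4 to 24.4, 22.1, 19.1 and 21.0 CPM (-0.35 ± 0.10, adjusted p = 0.00431). In all 6 the EN libraries lay below the CV libraries, as they did for 41.6% of all transcripts. Set beside the core subunit it serves, Ndufaf5 was lower in EN than in CV while Ndufs7 was higher with TMM. The fall of Ndufaf5 was called in all 6 other scalings, the rise of Ndufs7 in 2 of them.

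**Figure D4:**
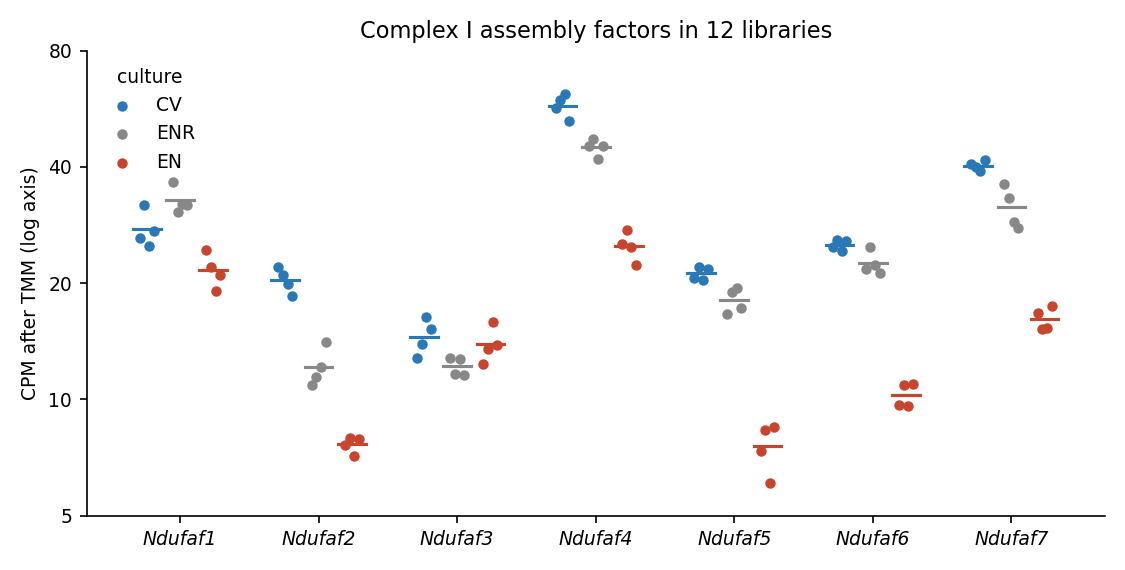
CPM (log axis) of the 7 complex I assembly factors in each library of CV, ENR and EN, with bars for means. For all but Ndufaf3 the 4 EN points lie below the CV and ENR points; on copies only 2 of the 7 are called lower in EN than in CV.

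Assembly factors for complex IV were mixed. Of the 7 transcripts from Cox10 to Cox20, 1 rose and 3 fell from CV to EN. Cox20, a chaperone of the mitochondrially encoded subunit 2, had 11.1, 11.2, 11.4 and 9.04 CPM in CV, 17.7, 14.7, 15.6 and 15.7 in ENR and 16.1, 18.8, 14.4 and 16.1 in EN. CV was below both other cultures without overlap (EN over CV 0.61 ± 0.11, adjusted p = 0.000108). Atp5sl, counted with the assembly factors because its product takes part in building complex I and not in the ATP synthase, was at 12.1, 10.9, 11.4 and 11.4 CPM in CV, 24.2, 20.0, 23.5 and 19.4 in ENR and 29.5, 25.7, 19.4 and 24.9 in EN. Again CV stood apart (EN over CV 1.12 ± 0.12, adjusted p = 4.88e-07; CV over ENR -0.92, adjusted p = 7.82e-06), while EN and ENR overlapped (0.20, adjusted p = 0.132).

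ENR, the regular medium, was below both other cultures for many members. Against ENR, 51 members were higher in EN and 7 lower (35.5% and 37.2% of all transcripts), with a median of 0.26 against -0.012 for all. The 7 lower ones included 6 Ndufaf transcripts, and 10 of 11 complex IV, 7 of 8 complex III and 11 of 13 ATP synthase transcripts were higher. This split became 13 and 31 with library totals, 1 and 15 with spike-ins, 29 and 13 on TPM and 74 and 0 on copies, while the members stayed above the median of all transcripts by 0.22 to 0.32 (0.17 on TPM with a pseudocount of 5). CV against ENR gave 34 higher and 10 lower (30.2% and 29.8% of all transcripts), with 15 of 30 complex I accessory transcripts higher (12 by DESeq2). Here the split was 40 and 8 with library totals, 5 and 3 with spike-ins, 53 and 4 on TPM and 4 and 1 on copies, and on copies the members exceeded all transcripts by only 0.0091. These comparisons share libraries, so the counts are set side by side and not tested against each other.

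Sorted by their mean CPM, 30 members were highest in EN and lowest in ENR, 23 highest in EN and lowest in CV, 16 highest in CV and lowest in ENR, and 12 highest in CV and lowest in EN. These orders were counted with TMM only and not for all transcripts. The split of EN against ENR turned with library totals and spike-ins, as given above. By edgeR's calls, 22 members were above ENR in both CV and EN (13.2% of all transcripts were) and 0 were below it in both (12.9%), in 2 comparisons that share the ENR libraries. Ndufa1, a small accessory subunit whose loss blocks complex I assembly, was at 64.8, 65.7, 63.5 and 60.5 CPM in CV, 36.2, 33.9, 36.6 and 38.0 in ENR and 79.7, 73.0, 65.5 and 68.7 in EN. ENR was low without overlap (EN over ENR 0.99, adjusted p = 1.29e-09; CV over ENR 0.81, adjusted p = 3.06e-08), and EN and CV were not called apart (0.18 ± 0.06, adjusted p = 0.0155). The main Ndufv3 transcript had 102, 94.6, 88.9 and 96.1 CPM in CV, 58.8, 57.4, 53.1 and 54.9 in ENR and 93.7, 95.9, 94.5 and 96.2 in EN, which gave 0.76 for EN and 0.77 for CV over ENR and -0.0063 between EN and CV (adjusted p = 0.906). Ndufs4 and Cox5a also had CV above ENR, by 0.56 and 0.44, but EN exceeded ENR for Cox5a (0.41) and not for Ndufs4 (0.018, adjusted p = 0.744).

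Other genes of the pathway were counted from lists. Among all transcripts, 35.2% were called higher and 41.2% lower in EN than in CV with TMM. The splits of the lists were not tested against these shares. Among 20 transcripts for complex II, cytochrome c, ubiquinone synthesis and related dehydrogenases, 10 were higher and 6 lower in EN than in CV (5 and 9 with library totals). Sdha, the flavoprotein of complex II, was at 312 ± 10.1 CPM in CV, 374 ± 13.2 in ENR and 482 ± 37.8 in EN (SD, n = 4). The largest rise was in Coq8a, a regulator of ubiquinone synthesis, at 15.2 ± 1.20 CPM in CV, 108 ± 5.79 in ENR and 99.3 ± 6.81 in EN (2.71 for EN over CV). The largest fall was in Dhodh, which feeds electrons from pyrimidine synthesis into ubiquinone, at 31.7 ± 2.27, 31.2 ± 1.88 and 6.26 ± 0.117 CPM (-2.34). Further assembly factors, 39 in all, were split 11 higher and 19 lower (6 and 28 with library totals). Sco2, which delivers copper to complex IV, rose most from 13.5 ± 1.01 to 35.3 ± 2.51 CPM, and Fastkd2, a mitochondrial RNA-binding protein, fell most from 82.7 ± 3.30 to 18 ± 0.478 CPM. Acad9, which works with Ndufaf1, fell from 118 ± 4.5 to 77.4 ± 4.30 CPM, and its partner Tmem126b was at 16.6 ± 1.03 and 16.2 ± 1.79 CPM (adjusted p = 0.703 by edgeR). Sdha, Acad9 and Tmem126b were picked after their values were seen, as was the group of regulators named next.

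Transcripts for regulators of mitochondrial genes showed no common direction from CV to EN, with 4 of 15 higher and 4 lower (4 and 10 with library totals). Tfam, which packages and transcribes mitochondrial DNA, was at 112 ± 3.42 CPM in CV, 155 ± 1.71 in ENR and 81.0 ± 1.74 in EN. Nrf1 and Gabpa, whose motifs were searched above, were at 22.8 ± 2.94, 30.1 ± 3.21 and 20.5 ± 0.890 CPM and at 61.4 ± 3.22, 94.7 ± 2.57 and 93.7 ± 8.09 CPM. By the naming rule, Mterf2 had the largest rise (19.5 ± 1.12 to 58.2 ± 4.38 CPM) and Tfb1m the largest fall (11.7 ± 0.850 to 5.90 ± 0.804 CPM). Of 22 transcripts for proteins of the outer and inner membrane, 5 were higher and 13 lower in EN (1 and 16 with library totals). For this list and the regulators, the shares among all transcripts were 35.2% higher and 41.2% lower with TMM. The extremes of this list were both ADP/ATP carriers, which exchange the product of the ATP synthase with the cytosol. Slc25a4 was at 412 ± 16.3 CPM in CV, 38.7 ± 2.02 in ENR and 12.9 ± 1.27 in EN (-5.00 for EN over CV, adjusted p = 5.95e-18), and Slc25a5 at 639 ± 5.26, 708 ± 12.2 and 1294 ± 53.8 CPM (1.02, adjusted p = 2.05e-13). Both were without overlap between CV and EN, and moved in opposite directions.

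Chromatin was read at 91 regions within 500 bp of a start site of 81 of the 82 genes (all but Ndufb8). The authors' scores are normalized read counts rounded to whole numbers, tested with limma on log2(score + 1), a scale that understates changes at low scores. Of these regions, 34 also lay within 500 bp of the start of another protein-coding gene, so a change there cannot be assigned to the member alone. Accessibility by ATAC-seq was higher in EN than in CV at 22 of the 91 regions and lower at 8, at an adjusted p under 0.05. Together these 30 calls became 12 without limma's intensity trend and 15 at a threshold of 0.01. The corresponding shares were 18.9% and 15.5% of all promoter regions, and the members' median log2 fold change was 0.10 against 0.01.

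H3K27ac, a mark of active promoters and enhancers, was higher in EN at 26 member regions and lower at 0 by limma, while 42 differed at an unadjusted p under 0.05. Among all promoter regions 16.1% were called higher and 3.59% lower, and the median log2 fold change was 0.51 for members and 0.17 for all promoters. By complex, 5 of 8 regions of complex III, 7 of 18 of the ATP synthase, 8 of 30 of complex I accessory subunits, 2 of 12 of complex IV and 1 of 7 of complex I core subunits were called higher. Of the 16 regions of assembly factors 3 were called higher, at Cox15, Cox20 and Atp5sl. Among these, 0 of the 8 at Ndufaf genes were called by limma, the nearest being Ndufaf1 (adjusted p = 0.0581). These 8 are too few to set them apart from the 16.1% of all promoters. Scores summed over all regions were 1345873 to 1406651 in CV and 1622103 to 1760511 in EN, so the EN libraries were higher in total. The part of this in the calls was not tested beyond quantile normalization, under which the count in either direction was 5. This count in either direction was 0 without limma's intensity trend and 11 without EN replicate 2. H3K4me3, found at active promoters, was higher at 2 regions and lower at 0 by limma (4.28% and 5.43% of all promoters), with 15 at an unadjusted p under 0.05. The count called in either direction was between 0 and 6 when single libraries were left out. H3K27me3, a repressive mark, was called at 0 regions by limma (0.286% and 0.0774% of all promoters), with 2 at an unadjusted p under 0.05. The depth of this mark limits the statement, since none of the 2-fold or 4-fold changes simulated from its own spread were recovered and 94.5% of the 16-fold ones were.

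**Figure D5:**
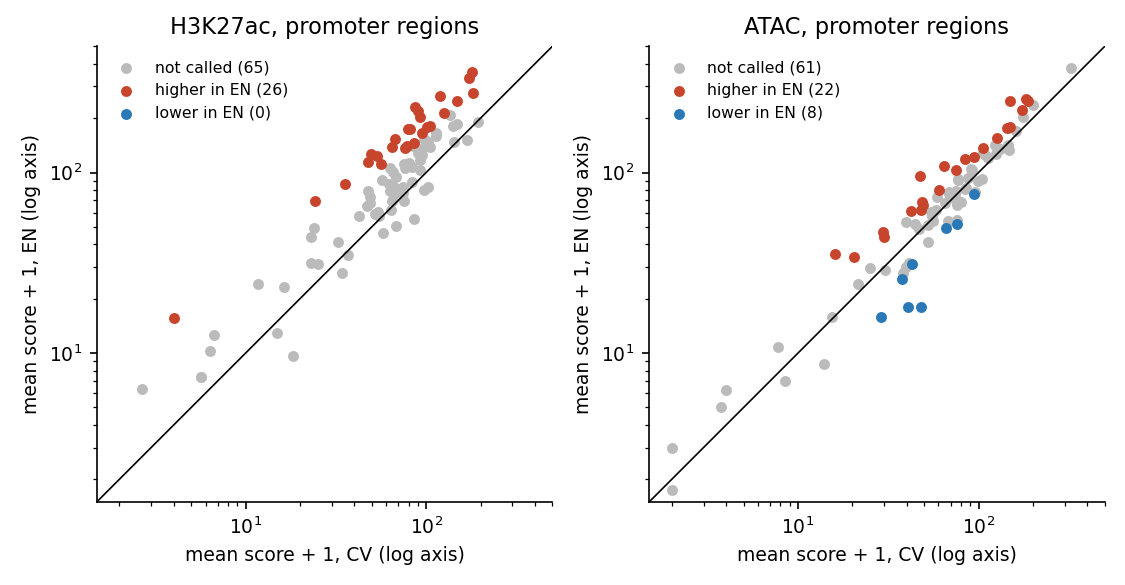
Mean score + 1 in EN against CV (log axes) at the 91 promoter regions of member genes for H3K27ac (3 libraries per culture) and ATAC-seq (4 libraries per culture), with the line of equal scores. For H3K27ac 26 regions are called higher and 0 lower, and for ATAC-seq 22 are higher and 8 lower.

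The Cox7a1 promoter was covered by a pair of regions, and in 3 of the 4 datasets 1 of the pair was called. The first, chr7:30968867-30969353, which spans the printed sequence, had ATAC scores of 51, 39, 43 and 52 in CV, 60, 67, 61 and 58 in ENR and 81, 109, 88 and 102 in EN. Accessibility rose without overlap between the cultures, in the order of the RNA (EN over CV 1.02 ± 0.13, adjusted p = 9.89e-06). H3K4me3 there was at 3, 7 and 5 in CV, 7, 6 and 5 in ENR and 16, 13 and 17 in EN (1.49 ± 0.28, adjusted p = 0.0233), so that EN alone stood apart. In the adjoining region chr7:30969399-30969585, H3K27ac was at 1, 5 and 3 in CV, 7, 7 and 2 in ENR and 8, 16 and 20 in EN (2.02 ± 0.63, adjusted p = 0.0455), at scores low enough for single reads to matter. ATAC and H3K4me3 were not called in this adjoining region (adjusted p = 0.236 and 0.0767 by limma), nor H3K27ac in the first (0.205). The H3K27ac call was lost without the trend, at a threshold of 0.01 and with the replicate block, and the H3K4me3 call at 0.01 and with the block. At the Atp5o promoter (chr16:91930649-91932517) ATAC was at 45, 40, 41 and 65 in CV and 59, 69, 65 and 78 in EN (0.52 ± 0.15, adjusted p = 0.0135), with 1 CV library inside the EN range.

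Examples of H3K27ac changes came from complex III. Uqcrq, which codes for a ubiquinone-binding subunit, had scores of 98, 77 and 82 in CV, 128, 99 and 114 in ENR and 226, 205 and 254 in EN at chr11:53243274-53244865 (1.41 ± 0.22, adjusted p = 4.52e-05), while its RNA was not called (0.18 ± 0.14, adjusted p = 0.247 by edgeR). Uqcrh had 167, 168 and 203 in CV and 343, 344 and 395 in EN at chr4:115747018-115749591 (1.01 ± 0.16, adjusted p = 5.62e-05), a region it shares with Lrrc41. The Uqcrq region is shared as well, with Gdf9, so neither change can be assigned to the member alone. Uqcrq and Uqcrh were chosen after their values were seen. Their H3K27ac calls were lost without limma's intensity trend and with the replicate block.

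Promoter and RNA calls did not always match in direction. Among all 81 genes with a promoter region, RNA was higher in EN for 39, lower for 18 and not called for 24, whatever the promoter did. The overlap of promoter and RNA calls was not tested against these shares. Of the 26 genes with higher H3K27ac, 18 had higher RNA in EN, 1 lower (Uqcr10) and 7 were not called. For 14 of these 26 the region also lay within 500 bp of the start of another protein-coding gene. The same held for 6 of the 22 regions with higher accessibility and 4 of the 8 with lower. Such changes cannot be assigned to the member alone. Of the 22 genes with higher accessibility, 9 had higher RNA, 3 lower (Ndufa4, Ndufaf7 and Ndufs4) and 10 were not called. The 8 regions with lower accessibility belonged to 7 genes, of which 5 had higher RNA (Atp5d, Ndufb10, Ndufb3, Ndufs3 and Ndufs7) and the other 2 (Cox11 and Ndufaf3) were not called. At Ndufs3, ATAC went from 47, 43, 35 and 62 in CV to 16, 16, 16 and 20 in EN (-1.38 ± 0.18, adjusted p = 8.51e-06) at chr2:90743779-90745569, a start region shared with Kbtbd4. Ndufs4 was the reverse, with ATAC at 9, 16, 19 and 16 in CV, 27, 36, 35 and 33 in ENR and 28, 24, 44 and 42 in EN (1.15 ± 0.23, adjusted p = 0.000705), while its RNA was highest in CV. Of the 8 regions at complex I assembly factors, ATAC was higher at 1 (Ndufaf7), lower at 1 (Ndufaf3) and not called at 6, including Ndufaf5, where it was at 151, 112, 126 and 99 in CV and 122, 136, 165 and 138 in EN (0.21 ± 0.13, adjusted p = 0.239).

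Hnf4g, a nuclear receptor of the intestinal epithelium, was profiled in 1 library per culture, so its values have no replicate check. The libraries held 84340 reads in regions for CV, 352600 for ENR and 1816497 for EN, and at the 91 promoter regions of the members the median was 0, 6 and 46 reads. Relative to all reads in regions (CPM, no TMM) this was 17 in ENR and 25.3 in EN, against 11.3 and 18.7 over all promoter regions. In CV 46 of the 91 regions had no read (50.5%), close to the 54.4% of all promoter regions. At the depth of the CV library a count of 0 allows up to 35.6 CPM (3 reads), above the EN median, so that lower binding in CV was not detectable there. Reads were highest in EN at Ndufab1, the mitochondrial acyl carrier protein (349 reads, or 192 CPM, 95% exact binomial interval 172 to 213), followed by Uqcrh (260 reads, or 143 CPM, 126 to 162). Reads per region grow with its width and accessibility as well as with binding, and the intervals cover counting error only.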

How the data were processed

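RNA-seq, ATAC-seq and ChIPmentation tables of mouse organoids were used as deposited. Per the labels and the study's methods, the authors aligned RNA reads with kallisto to RefSeq transcripts whose proteins were quantified plus 92 spike-ins, which gave estimated counts per transcript; the deposited file also holds the authors' TPM values and other values, mRNA copy numbers scaled to spike-ins. For chromatin, the authors mapped reads with BWA to mm9, removed duplicates with Picard, called peaks with MACS2 2.0 and deposited a union of regions with a normalized score per library, rounded to whole numbers, while Hnf4g is deposited as raw read counts per region.

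Estimated counts were rounded and spike-ins left out. Library totals were 5630951 to 8859744 counts. The 9288 transcripts seen in 4 or more of the 12 libraries entered a single edgeR 4.0.16 quasi-likelihood fit with TMM, no block and Benjamini-Hochberg adjustment over all transcripts, called under 0.01. Scores were tested as log2(score + 1) with limma 3.58.1 (trend), regions above 0 in at least 3 libraries, called under 0.05. The Cox7a1 share was tested by exact permutation. DESeq2 1.42.0 served as an alternative, beside other scalings, filters, thresholds and left-out libraries. Standard errors are edgeR's or limma's. On simulated data, edgeR recovered 95% of 200 transcripts changed 2-fold from CV to EN (9278 transcripts, 1 false call). For 200 changed regions with a mean score of at least 20, limma recovered 95.5% of 2-fold changes for ATAC, 1.5% for H3K27ac (92.5% of 4-fold) and 40% for H3K4me3 (100% of 4-fold). Within a dataset all simulated regions had the same spread, which real regions need not share.

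Start sites came from GENCODE vM1 and sequences from the mm9 genome; 4 of the 82 symbols matched through older names. Genes named with values were, per role, the 2 largest rises and falls from CV to EN among called members without overlap, preset core subunits, paralogs, and the 2 members most above ENR in both other cultures; other named genes are marked as chosen later. The members and lists were chosen with earlier results of these data known. Same-numbered libraries of different cultures did not deviate together in RNA, H3K27ac, H3K4me3 or H3K27me3. In ATAC they did weakly (r = 0.07 to 0.46, not every pair over 0.1), and the labels do not pair them. Histone mark libraries without a column, and a knockout pair of RNA libraries, were not analysed here. For Hnf4g, 95% exact binomial intervals and a floor of 3 reads cover counting error only.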

Additional observations from a re-analysis of the deposited data

Results flagged for a closer look

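Within the 87 sets of 4 libraries of the named members, 6 had 1 library far from its other 3 by Dixon's criterion, and chance gives about 1 in 20. Ndufv1 was lowest in CV replicate 2 at 291 CPM (the others at 301 to 303), and Ndufs4 in CV replicate 4 at 103 CPM (112 to 113). Atp5o was highest in CV replicate 2 at 209.7 CPM (199 to 200.1), and so was Cox5a at 132 CPM (129.0 to 129.4). Atp5d was lowest in ENR replicate 1 at 86.0 CPM (93.8 to 94.9), and Cox20 in CV replicate 4 at 9.04 CPM (11.1 to 11.4).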

How the results depend on the processing

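The scaling of the RNA libraries set the sign of small changes; the cause was not tested. With library totals the EN against CV counts were 8 higher and 46 lower with a median of -0.24, and Ndufs3 (-0.072), Atp5a1 (-0.12), Atp5b (-0.30), Uqcrc1 (-0.0044), Uqcrfs1 (-0.086) and Cox7a2 (-0.0793) turned; EN against ENR gave 13 and 31, median -0.10, with Ndufs7 (-0.16), Ndufv1 (-0.17), Uqcrc2 (-0.16), Cox7a2l (-0.22), Atp5a1 (-0.13) and Atp5b (-0.27) turned, and CV against ENR a median of 0.21. With spike-ins EN against CV gave 3 higher, median -0.23, and Ndufs3 (-0.067), Atp5a1 (-0.12), Atp5b (-0.29), Uqcrfs1 (-0.088) and Cox7a2 (-0.089) turned; EN against ENR gave 1 and 15, median -0.25, with Ndufs7 (-0.32), Ndufv1 (-0.31), Ndufa2 (-0.14), Uqcrc2 (-0.32), Cox7c (-0.062), Cox7a2l (-0.38), Atp5a1 (-0.28), Atp5b (-0.42), Uqcrc1 (-0.060), Cox4i1 (-0.0021), Cox5a (-0.11) and Cox7a2 (-0.093) turned, and CV against ENR 5 and 3, median 0.056. On TPM with pseudocounts of 1 and 5, EN against CV gave 10 and 34 (median -0.16) and 11 and 36 (-0.15), with Atp5a1 (-0.018) and Atp5b (-0.19) turned under both; EN against ENR 29 and 13 and 29 and 14 (medians 0.073), with Cox7a2l (-0.0232 and -0.0231) and Atp5b (-0.072) turned; CV against ENR 53 and 4 (0.30) and 55 and 5 (0.29). On copies EN against CV gave 59 and 2 (median 1.04), with Ndufs1 (0.61), Ndufv1 (0.72), Ndufs4 (0.25), Uqcr10 (0.58) and Cox7a2l (0.60) turned; EN against ENR 0 lower (median 1.20), with Ndufc2 (0.48) and Ndufaf2 (0.31) turned, and CV against ENR 4 and 1 (0.21). At an adjusted p under 0.05, CV against ENR had 16 lower. Of the named members called in EN against CV, 15 of 26 kept their direction under all 6 other scalings, and Cox7a1, Atp5o, Atp5sl, Ndufaf2 and Ndufaf5 were called in each.

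Filters, the fit of 8 libraries, 1 transcript per gene and leaving out single libraries kept the RNA counts within 1.5 times (37 to 41 higher and 14 to 19 lower in EN against CV without 1 library). For chromatin, calls were counted in either direction, and ATAC calls went from 30 to 12 without the trend and 15 under 0.01. The 26 H3K27ac calls became 0 without the trend, 5 with quantile normalization, 14 under 0.01 and 11 to 23 without single libraries (11 without EN replicate 2, 14 without EN replicate 3 or 4). The 2 H3K4me3 calls became 1 without the trend, 0 under 0.01 and 0 to 6 without single libraries.

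Replicate numbers were tried as a block. Same-numbered libraries had correlations of -0.06 to 0.10 in RNA, and the mean was -0.0028 in H3K27ac and 0.05 in H3K4me3; in ATAC it was 0.17 (0.07 to 0.46, against -0.056 for other pairs). With the block RNA counts were 40 and 19, 51 and 7, and 34 and 11, ATAC calls 34, H3K27ac 0 and H3K4me3 0. Depth and spread limit H3K27me3, for which no 2-fold change could be recovered in simulation, and 2-fold H3K27ac changes were recovered in only 1.5%. Both figures are for simulated regions with a mean score of at least 20 and the same spread for all.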
